A study of Mus musculus with 2 samples.

Results

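The Schlafen genes Slfn1, Slfn2, Slfn4, Slfn5 and Slfn8 were described in leukocytes of mouse melanomas of a pair of cell lines. They were picked by symbol from the count matrix, and all 5 were found among its 12584 genes. The choice was made with the differences between these libraries known, so the ratios between libraries are a description and carry no test. Slfn3 and Slfn9 are in the matrix too but were not chosen. Slfn14, whose gene lies beside them, is not in the matrix and so was not analysed.

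The study asked how the leukocytes of a melanoma that tolerates targeted therapy differ from those of one that was never exposed to it. NTT marks tumours grown from the therapy-naive form of YUMM3.3, a mouse melanoma line with mutant Braf and no Cdkn2a, and RTT tumours from its derivative that resists targeted therapy. Both were grown under the skin of C57BL/6 mice and taken at day 12, and live cells carrying CD45, the surface marker of leukocytes, were sorted for single-cell RNA sequencing. The labels name no treatment of the mice and give no age. Each group is 1 library, and how many tumours entered it is not given in the sources used here, so line, mouse, sort and library cannot be told apart, and no difference can be set against a spread between mice.

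The NTT library held 2975 cells with 19634099 unique molecular identifiers (UMIs, each a tag for 1 captured transcript), and the RTT library held 4840 cells with 44712071. Cells of the RTT library were deeper, with a median of 8335.5 UMIs against 5398 for NTT, and 7 cell barcodes occurred in both libraries. The authors' 16 population names are used throughout. Levels are in CPM, the UMIs of a gene per 1000000 UMIs after the cells of a population or library had been summed. Ratios are log2 of RTT over NTT CPM, with 95% intervals that cover counting error only. The words 2-fold lower or higher are used where that ratio is at most -1 or at least 1. Libraries read transcripts at their 3′ ends, so levels are compared between cells and libraries and not between genes.

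Schlafen proteins are a family named after the German verb for sleeping, because the first members were linked to quiescence of lymphocytes. Many family genes are induced by type I interferon, the cytokine that signals through the receptor chains Ifnar1 and Ifnar2 to transcription factors, and several restrict viruses or cut transfer RNA. Short members carry little beyond the core domain shared by the family, intermediate members carry an added linker region, and long members end in a helicase-like domain. In mice the genes sit side by side and differ in the leukocytes that use them.

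All 5 genes lie in 1 stretch of chromosome 11, at chr11:82951349-83190216 of GRCm38 (mm10, the build of the files), in the GENCODE M21 annotation. The short members Slfn1 and Slfn2 encode 337 and 378 codons there, the intermediate member Slfn4 encodes 602, and the long members Slfn5 and Slfn8 encode 884 and 910. Slfn8 is on the minus strand and the other 4 are on the plus strand. Slfn9 lies between Slfn5 and Slfn8, and Slfn3 follows Slfn4. Of the 50-base words in the last 500 bases of the Slfn8 transcript with the longest coding sequence, 3.10% also occur in another gene, Slfn9. The figure was 0 for the other members. For Slfn3, which was not chosen, it was 12.9%, with the shared words in Slfn4. Antisense transcripts overlap 9333 bases of Slfn5 (Slfn5os) and 4927 bases of Slfn2 (Gm20234). Whether the reference used for counting held them is not given in the sources used here.

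Since the genes are neighbours that were mostly lower together, the bases before each start are shown, 160 for each gene and 5′ to 3′ on its own strand, from RefSeq on GRCm38.p6. The windows are chr11:83116660-83116819 for Slfn1, chr11:83064952-83065111 for Slfn2, chr11:83175026-83175185 for Slfn4 and chr11:82951942-82952101 for Slfn5, all on the plus strand, and chr11:83020811-83020970 on the minus strand for Slfn8. They are upstream of the RefSeq starts. The Slfn5 start used lies 753 bases inside the GENCODE gene, so its window is not upstream of that gene. Capitals mark matches to the motifs named after the sequences.
Slfn1: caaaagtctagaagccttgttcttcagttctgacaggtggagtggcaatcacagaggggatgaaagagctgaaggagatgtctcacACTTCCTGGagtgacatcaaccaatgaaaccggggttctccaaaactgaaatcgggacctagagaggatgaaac
Slfn2: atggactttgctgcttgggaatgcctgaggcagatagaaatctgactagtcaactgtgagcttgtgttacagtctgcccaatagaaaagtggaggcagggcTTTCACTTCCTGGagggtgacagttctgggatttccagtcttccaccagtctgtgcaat
Slfn4: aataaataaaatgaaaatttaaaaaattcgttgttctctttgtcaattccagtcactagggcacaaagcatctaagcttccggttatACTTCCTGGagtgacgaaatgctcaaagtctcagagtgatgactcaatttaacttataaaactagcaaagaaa
Slfn5: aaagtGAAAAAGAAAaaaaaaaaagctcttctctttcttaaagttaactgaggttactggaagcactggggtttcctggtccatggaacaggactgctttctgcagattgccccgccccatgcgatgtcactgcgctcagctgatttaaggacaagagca
Slfn8: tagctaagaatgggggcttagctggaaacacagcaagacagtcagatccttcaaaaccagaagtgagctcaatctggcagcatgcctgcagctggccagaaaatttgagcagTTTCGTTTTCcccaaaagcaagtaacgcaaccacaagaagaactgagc

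Motifs were searched on both strands over 300 bases, 250 before to 50 after the start, and the share holding each was taken over 27025 RefSeq promoters. GAAA followed after any 2 bases by another GAAA, the core of the interferon-stimulated response element, occurs in 3.49% of promoters and in 2 of the 5, from base -155 to -146 in Slfn5 and from -48 to -39 in Slfn8. GGAA followed after any 2 bases by GAAA, a composite of an ETS and an interferon factor site, occurs in 2.79% and in 1 of the 5, Slfn2, from -59 to -50. CCAGGAAGT, an ETS site, was added after the sequences had been seen because Slfn1, Slfn2 and Slfn4 share it. It occurs in 0.888% of promoters, and lies from -74 to -66 in Slfn1, from -55 to -47 in Slfn2, where it overlaps the composite match, and from -73 to -65 in Slfn4. A match is a string of letters and not a shown binding site.

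Over all cells, 4 of the 5 genes were at least 2-fold lower in the RTT library, against 9.60% of the 8220 genes with at least 500 UMIs. That share is given for scale, since the members were chosen with this contrast known. The median gene had a log2 ratio of 0.10, and 8.18% of genes were 2-fold higher.

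Slfn4, an intermediate member of activated myeloid cells, had 126 CPM in the NTT library (2473 UMIs) and 3.40 CPM in the RTT library (152 UMIs). Its log2 ratio was -5.21 (-5.46 to -4.97), and 0.0608% of tested genes had a lower one. Slfn1, a short member known from thymocyte and T cell growth arrest, had 304 CPM in the NTT library (5965 UMIs) and 32.3 CPM in the RTT library (1442 UMIs), with a log2 ratio of -3.24 (-3.32 to -3.15). Slfn5, a long nuclear member, had 591 CPM in the NTT library (11609 UMIs) and 73.5 CPM in the RTT library (3288 UMIs), with a log2 ratio of -3.01 (-3.06 to -2.95). These were the 3 members with the largest differences, and in each the RTT level was under the NTT level by more than counting error.

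Slfn8, the other long member, had 120 CPM in the NTT library (2353 UMIs) and 30.7 CPM in the RTT library (1373 UMIs), with a log2 ratio of -1.96 (-2.06 to -1.87). Slfn2, a short member needed for quiescence of T cells and monocytes, had 665 CPM in the NTT library (13062 UMIs) and 364 CPM in the RTT library (16253 UMIs). Its log2 ratio was -0.87 (-0.91 to -0.84), so it was the member short of 2-fold. Of the Schlafen genes not chosen, Slfn9 had a log2 ratio of -1.55 (-1.67 to -1.42). Slfn3 had 74 NTT and 76 RTT UMIs, too few for the minimum, and a log2 ratio of -1.15 (-1.63 to -0.67).

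The members were compared next between populations of each library, ordering the 11 NTT and 10 RTT populations with at least 50 cells. Infl_Mono, the inflammatory monocytes, had the highest level of Slfn2, Slfn5 and Slfn8 in both libraries, and each of these was above the next population by more than counting error. All 5 members are on the inflammatory monocyte signature that the study drew from a map including these cells, so this order is not independent of the population's name. Of the 5 monocyte markers, Ly6c2 is not in the count matrix, and the other 4 were detected in Infl_Mono of both libraries. They summed to 11525 CPM for NTT and 4033 CPM for RTT.

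**Figure D1:**
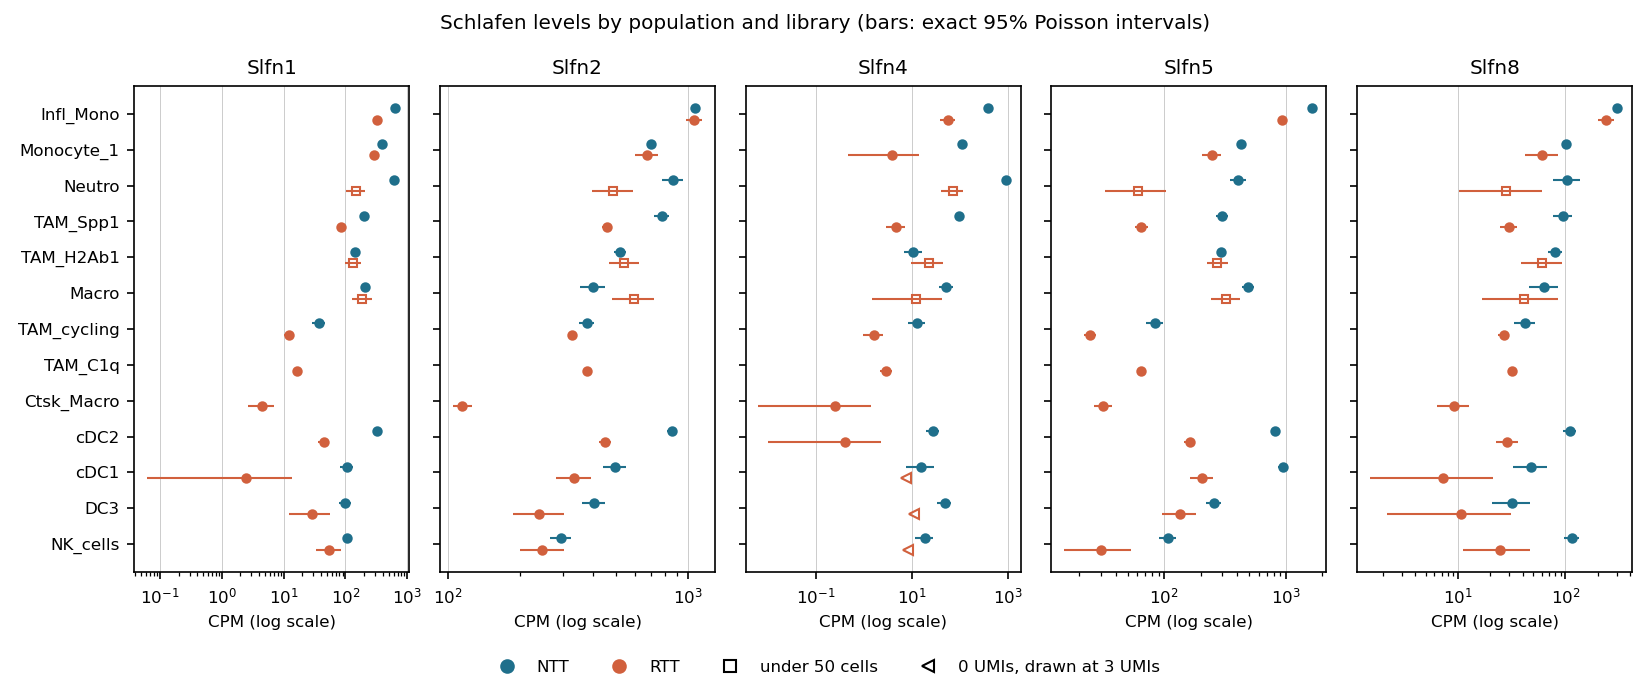
Each panel plots 1 Schlafen gene, with the level in CPM on a logarithmic x axis and the populations on the y axis, for the NTT (blue) and RTT (orange) library with exact 95% Poisson intervals; squares mark populations under 50 cells, those under 20 cells are not drawn, and an open triangle stands for 0 UMIs, drawn at 3. Infl_Mono lies at or near the right edge of every panel, and the Slfn4 level of NTT neutrophils, 896 CPM, exceeds that of Infl_Mono, 370 CPM.

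Slfn5 stood at 1666 CPM in NTT and at 936 CPM in RTT Infl_Mono. In the NTT library both conventional dendritic cell populations came next, cDC1 with 948 CPM and cDC2 with 823 CPM, ahead of Macro with 493 CPM and Monocyte_1 with 430 CPM. In the RTT library Monocyte_1 was second with 247 CPM, and its neighbours cDC1, cDC2 and DC3, between 203 and 134 CPM, did not differ from 1 to the next beyond counting error. Further apart in that order, Monocyte_1 (207 to 294 CPM) lay above cDC2 (147 to 178 CPM). Conventional dendritic cells thus ranked above Monocyte_1 for Slfn5 in the NTT library and did not in the RTT library. In cells named DC3, the 3 mature dendritic cell markers Ccr7, Fscn1 and Ccl22 summed to 5542 CPM for NTT and 7731 CPM for RTT. Their sums in cDC1 and cDC2 were at most 38.2 CPM.

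Slfn2 stood at 1066 CPM in NTT and at 1060 CPM in RTT Infl_Mono. The other NTT populations ran from 865 CPM in neutrophils to 295 CPM in NK_cells, and the other RTT populations from 672 CPM in Monocyte_1 to 115 CPM in Ctsk_Macro. Taken as the highest over the lowest level, Slfn2 thus had the narrowest range of the members in both libraries. Like Slfn1, Slfn5 and Slfn8, it was detected in every population of at least 50 cells.

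Slfn8 stood at 299 CPM in NTT and at 239 CPM in RTT Infl_Mono. NK_cells was second in the NTT library with 115 CPM, but none of the 10 NTT populations below Infl_Mono differed from its neighbour beyond counting error, down to DC3 with 31.7 CPM. The ends of this order did differ, with intervals of 97.1 to 134 CPM for NK_cells and 20.5 to 46.8 CPM for DC3. The NK_cells label holds other lymphocytes too: the 4 T cell markers summed to 4212 CPM and the 4 NK cell markers to 4552 CPM in its NTT cells.

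Slfn1 had 638 CPM in NTT Infl_Mono and 600 CPM in NTT neutrophils, which did not differ beyond counting error, followed by Monocyte_1 with 388 CPM and cDC2 with 322 CPM. In the RTT library Infl_Mono with 329 CPM and Monocyte_1 with 289 CPM did not differ beyond it either, and TAM_Spp1 came next with 86.0 CPM. TAM_C1q, the most numerous RTT population with 2001 cells, had 16.2 CPM of Slfn1.

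Slfn4 had another leader. NTT neutrophils, 91 cells, had 896 CPM (811 to 987), followed by Infl_Mono with 370 CPM, Monocyte_1 with 109 CPM and TAM_Spp1 with 93.4 CPM, the last pair alike within counting error. Infl_Mono held 47.1% and neutrophils 16.4% of the Slfn4 UMIs of the library. The 29 RTT neutrophils had 70.0 CPM (15 UMIs, 39.2 to 115), and markers moved with this. The 6 neutrophil markers summed to 83715 CPM for NTT and 18911 CPM for RTT cells of that name, and the 6 macrophage markers to 5210 and 38423 CPM. C1qa reached 1000 CPM in 14.3% of NTT and 51.7% of RTT neutrophils. The part of these cells in the Slfn4 level was not tested. RTT Infl_Mono had 54.3 CPM, and no other RTT population of at least 50 cells exceeded TAM_Spp1 with 4.59 CPM.

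Slfn4 was also seen in NTT populations at low levels, such as NK_cells with 18.1 CPM and cDC1 with 15.3 CPM. In DC3, 59.5% of its 37 NTT UMIs were in 1 cell. Since RNA freed from neutrophils can enter other droplets, Slfn4 was set beside S100a9, a transcript abundant in neutrophils. NTT neutrophils had 24.2 Slfn4 UMIs per 1000 S100a9 UMIs. The other NTT populations with at least 50 cells ran from 192 in TAM_cycling to 5706 in Infl_Mono, with 226 in NK_cells, 312 in cDC1 and 339 in DC3. Myofibrobl, with 3 Slfn4 UMIs, had 34.1. Free RNA can come from other cells too, and Infl_Mono held 47.1% of the NTT Slfn4 UMIs against 16.4% in neutrophils. The neutrophil ratio thus cannot stand for free RNA as a whole. The part of free RNA in the low levels was not tested.

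Levels were then compared between libraries within populations, since the makeup of the libraries differed. Ratios were taken in the 8 populations with at least 50 cells in each library. None of the 5 members had an interval above 0 in any of the 8. All 5 members are on the inflammatory monocyte signature, so their ratios and counts in Infl_Mono are not independent of its name. Contrasts of Infl_Mono with other populations share this limit.

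**Figure D2:**
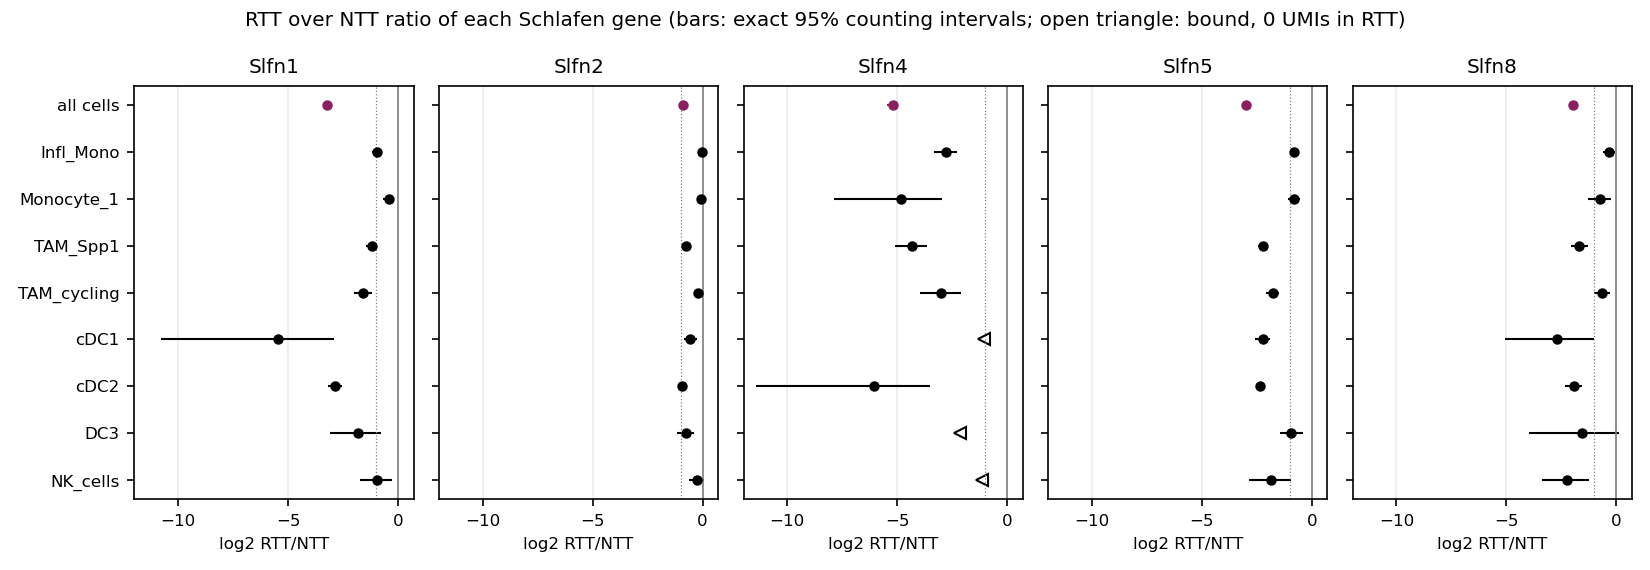
Each panel plots 1 Schlafen gene, with the log2 RTT over NTT ratio on the x axis and all cells or 1 population on the y axis, with exact 95% counting intervals; the dotted line marks a 2-fold lower level, and an open triangle is a bound where RTT had 0 UMIs. The points of Slfn2 lie right of the dotted line in every row and the points or bounds of Slfn4 left of it in every row, while Slfn1, Slfn5 and Slfn8 lie nearer 0 in the monocyte rows than over all cells.

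Slfn4 was 2-fold lower in all 8 populations, in DC3, NK_cells and cDC1 by a bound because RTT had 0 UMIs. Several of the NTT levels were low. Those of cDC2 (26.4 CPM), NK_cells (18.1 CPM), cDC1 (15.3 CPM) and TAM_cycling (12.6 CPM) did not differ from 1 to the next beyond counting error. The ends of this order did, with intervals of 19.2 to 35.3 CPM for cDC2 and 8.10 to 18.8 CPM for TAM_cycling. NK_cells are lymphocytes that should lack this myeloid gene. In DC3, 59.5% of the NTT UMIs were in 1 cell. Whether Slfn4 fell inside the cells of these populations was not tested. In Infl_Mono the level was 370 CPM for NTT (1164 UMIs) and 54.3 CPM for RTT (32 UMIs), a log2 ratio of -2.77 (-3.32 to -2.26). In Monocyte_1 the level was 109 CPM for NTT (593 UMIs) and 3.81 CPM for RTT (2 UMIs), a log2 ratio of -4.85 (-7.90 to -2.99). These monocyte populations had the largest NTT counts, and RTT held few UMIs in both.

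TAM_Spp1, a tumour macrophage population, had a Slfn4 log2 ratio of -4.35 (-5.12 to -3.64), from 96 NTT and 20 RTT UMIs. TAM_cycling had -3.02 (-3.97 to -2.09), from 24 and 19 UMIs, and cDC2 had -6.08 (-11.4 to -3.52), from 45 UMIs and 1 UMI. With 0 RTT UMIs set to a floor of 3 per library, Slfn4 was at least 4.43-fold lower in DC3, 2.22-fold in NK_cells and 2.11-fold in cDC1. These bounds leave out the counting error of the 37, 24 and 10 NTT UMIs. With it, the upper ends of the log2 intervals were -1.78, -0.74 and -0.50, so those of NK_cells and cDC1 do not reach 2-fold. Among populations under 50 cells in a library, TAM_H2Ab1 went the other way, with 10.4 CPM for NTT (23 UMIs, 169 cells) and 22.2 CPM for RTT (8 UMIs, 36 cells). Its Poisson intervals, 6.61 to 15.7 and 9.58 to 43.7 CPM, overlapped.

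Slfn5 was lower in all 8 populations, with intervals below 0 in each, and at least 2-fold lower in 5. The log2 ratio was -0.83 (-0.96 to -0.71) in Infl_Mono and -0.80 (-1.06 to -0.54) in Monocyte_1, where the level went from 430 to 247 CPM. In cDC2 it was -2.35 (-2.51 to -2.19), from 823 to 162 CPM, in cDC1 -2.22 (-2.57 to -1.89), from 948 to 203 CPM, and in TAM_Spp1 -2.21 (-2.45 to -1.97), from 300.5 to 64.9 CPM. For Slfn5 the intervals of cDC1, cDC2, TAM_Spp1 and TAM_cycling thus lay below those of both monocyte populations. DC3, with -0.93 (-1.47 to -0.42), and NK_cells, with -1.84 (-2.88 to -0.96) from 142 and 11 UMIs, overlapped with a monocyte interval.

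Slfn1 was lower in all 8 populations too, with intervals below 0 in each. The log2 ratio was -0.42 (-0.67 to -0.18) in Monocyte_1, from 388 to 289 CPM, and -0.95 (-1.17 to -0.74) in Infl_Mono, from 638 to 329 CPM. In cDC2 it was -2.87 (-3.17 to -2.57), from 322 to 44.2 CPM. In cDC1 it was -5.45 (-10.8 to -2.92), from 69 UMIs and 1 UMI. Slfn1 and Slfn5 thus shared smaller differences in both monocyte populations than in conventional dendritic cells, though Slfn1 in Infl_Mono lay close to 2-fold. The Infl_Mono part of this contrast is not independent of the population's name.

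Slfn8 had an interval below 0 in 7 of 8 populations, the exception being DC3 with 25 NTT and 3 RTT UMIs. Its log2 ratio was -0.32 (-0.59 to -0.07) in Infl_Mono, -0.74 (-1.31 to -0.23) in Monocyte_1 and -1.94 (-2.35 to -1.54) in cDC2, from 110 to 28.5 CPM for the last. In TAM_cycling it was -0.66 (-1.02 to -0.29), but 0.41 once cells had been thinned to 2000 UMIs, so its direction there is not settled. NK_cells had 152 NTT and 9 RTT UMIs, a log2 ratio of -2.23 (-3.39 to -1.27), and 17.8% of those NTT UMIs were in 1 cell.

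Slfn2 was 2-fold lower in 0 of the 8. Its log2 ratio was -0.01 (-0.13 to 0.12) in Infl_Mono and -0.06 (-0.22 to 0.10) in Monocyte_1, with 699 against 672 CPM for the latter. Both intervals lie within 2-fold either way, and values under other scalings and filters lay on both sides of 0, from -0.42 to 0.03 in Infl_Mono and from -0.13 to 0.07 in Monocyte_1. In cDC2 it was -0.92 (-1.04 to -0.81), from 857 to 451 CPM, in TAM_Spp1 -0.76 (-0.88 to -0.64), from 777 to 457 CPM, and in TAM_cycling -0.21 (-0.32 to -0.09), from 378 to 328 CPM. Slfn2 was thus near 0 in both monocyte populations and lowest relative to NTT in cDC2.

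Markers of other cells also differed between libraries within populations. In cDC2 the 4 monocyte markers summed to 4992 CPM for NTT and 726 CPM for RTT, while the 4 cDC2 markers summed to 13922 and 21790 CPM. In TAM_Spp1 the monocyte markers summed to 7448 and 2436 CPM, and the 6 macrophage markers to 7753 and 20681 CPM. In Monocyte_1 the monocyte sums were 5474 and 3459 CPM and the macrophage sums 17580 and 16519 CPM. In TAM_cycling the monocyte sum was higher in RTT, with 215 and 847 CPM, and the macrophage sums were 27302 and 35790 CPM. Monocyte and macrophage sums cover different genes, so each is compared between libraries only. All of these markers were detected in both libraries, and their part in the Schlafen ratios was not tested.

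The macrophage populations TAM_H2Ab1 and Macro had too few RTT cells, 36 and 26, for this comparison. In TAM_H2Ab1 the intervals of all 5 members overlapped between libraries, and in Macro those of Slfn1, Slfn4 and Slfn8 did. In TAM_H2Ab1, Slfn5 had 296 CPM (274 to 319.7) for NTT and 275 CPM (223 to 334) for RTT, and Slfn1 had 141 CPM (125 to 157) and 133 CPM (98.2 to 177). In Macro, Slfn2 had 402 CPM (356 to 452) for NTT and a higher 593 CPM (483 to 720.1) for RTT, and Slfn5 had 493 CPM (442 to 548) and 323 CPM (243 to 420.1).

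Counted by population, 1 of 5 members was 2-fold lower in Infl_Mono, against 9.78% of its 2914 genes with at least 200 UMIs, and 1 of 5 in Monocyte_1, against 9.87% of 4002 genes. Both times the member was Slfn4. In cDC2, 4 of 5 were lower (3 of the 4 that met the minimum), against 6.71% of 3325 genes, and in TAM_Spp1 also 4 of 5 (3 of 4), against 12.5% of 3889 genes. TAM_cycling had 3 of 5 (2 of 4), against 4.34% of 6865 genes. By these counts more members were lower in cDC2 and TAM_Spp1 than in both monocyte populations, and the difference between the counts was not tested. The Infl_Mono count is not independent of the population's name.

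In the populations with fewer cells the minimum left few members. In cDC1, 4 of 5 were lower (1 of the 2 that met the minimum), against 4.61% of 889 genes. In DC3, 3 of 5 were lower (0 of 2), against 5.45% of 844 genes, and in NK_cells 3 of 5 (0 of 1), against 5.51% of 1707 genes, with Slfn4 counted by its bound in all of these. Over merged classes, 1 of 5 was lower in monocytes against 6.74% of 5326 genes, 4 of 5 in macrophages against 6.18% of 8888 genes, and 4 of 5 (3 of 4) in dendritic cells against 7.56% of 4407 genes.

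No member was 2-fold higher in any of these sets. Genes 2-fold higher made up 5.15% in Infl_Mono, 2.40% in Monocyte_1, 4.48% in cDC2, 12.2% in TAM_Spp1 and 4.78% in TAM_cycling. They made up 1.91% in cDC1, 2.61% in DC3, 2.11% in NK_cells, 2.97% in monocytes, 4.61% in macrophages and 4.83% in dendritic cells.

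Macrophage markers moved with the comparison in Infl_Mono. All 6 were detected in both libraries, and they summed to 7586 CPM for NTT and 31846 CPM for RTT. Neutrophil markers summed to 298 CPM for NTT and 50.9 CPM for RTT Infl_Mono, where Retnlg and Cxcr2 were at 0. C1qa, a complement subunit made by macrophages, reached 1000 CPM in 23.4% of the 620 NTT and 47.9% of the 94 RTT cells, and 37 NTT and 6 RTT cells lay near this cut, between 500 and 2000 CPM. Whether these cells are doublets was not tested, and no doublet caller was run.

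Without the cells at or above 1000 CPM of C1qa, a comparison added after the data had been seen, 475 NTT and 49 RTT Infl_Mono cells were left. The log2 ratio then became -0.56 for Slfn1, -0.42 for Slfn2, -1.63 for Slfn4, -1.29 for Slfn5 and -1.01 for Slfn8, and 3 of 5 members were 2-fold lower. Neither intervals for these ratios nor the share of all genes past 2-fold in these cells were computed. The 49 RTT cells held 26 Slfn8 and 24 Slfn4 UMIs, and Slfn8 lay close to the threshold. The members parted inside RTT Infl_Mono. Slfn2 had 1198 CPM (1093 to 1311) in its 45 cells with C1qa at that level and 770 CPM (651 to 905) in the others. These 45 cells held 398060 UMIs and the other 49 held 190842, so cells with C1qa were also deeper. The part of depth in these levels was not tested. Slfn5 had 1050 (952 to 1156) against 697 CPM (584 to 826), and Slfn8 had 289 (239 to 347) against 136 CPM (89.0 to 200). Slfn1 and Slfn4 lay on the other side.

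Slfn1 had 286 CPM (236 to 344) in the RTT Infl_Mono cells with C1qa and 419 CPM (332 to 522) in the others, with overlapping intervals, and Slfn4 had 20.1 CPM (8.68 to 39.6) from 8 UMIs against 126 CPM (80.6 to 187) from 24. In NTT Infl_Mono, Slfn2 had 1161 against 1033 CPM, Slfn8 had 373 against 274 CPM and Slfn5 had 1549 against 1706 CPM, so Slfn5 lay the other way there. Monocyte_1 differed again. Among its NTT cells every member was lower in the cells with C1qa, Slfn5 for instance with 344 against 589 CPM and Slfn4 with 76.2 against 172 CPM. Among its RTT cells Slfn1 had 185 against 425 CPM and Slfn5 had 192 against 319 CPM.

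How many cells carried each gene was compared at equal depth, with each cell thinned to 2000 UMIs. This left out 107 NTT and 63 RTT cells. In Infl_Mono the share with a Slfn4 UMI was 38.6% (34.7 to 42.7) for 598 NTT cells and 7.61% (3.11 to 15.1) for 92 RTT cells. NK_cells, lymphocytes that should lack this myeloid gene, gave 3.05% of 164 NTT cells, and 0 of 41 RTT cells, a count that leaves room for a share up to 7.32%. The median depths before thinning were 4811 and 5358.5 UMIs in NTT and 5385.5 and 3967 UMIs in RTT Infl_Mono and NK_cells. That limit reflects the small number of RTT NK_cells. In CPM, RTT Infl_Mono had 54.3 (37.2 to 76.7) and RTT NK_cells 0 (up to 10.0). Before thinning, the Slfn4 share in NTT Infl_Mono was 53.5%.

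For Slfn2 the share of Infl_Mono cells was 85.8% in NTT (82.7 to 88.5) and 81.5% in RTT (72.1 to 88.9), and for Slfn5 it was 82.3% (79.0 to 85.3) and 75.0% (64.9 to 83.4). For Slfn8 it was 40.3% (36.3 to 44.4) and 35.9% (26.1 to 46.5). These 3 shares had overlapping intervals between the libraries. Slfn1 did not, with 64.4% (60.4 to 68.2) in NTT and 40.2% (30.1 to 51.0) in RTT. In Monocyte_1, Slfn1 was at 49.0% and 43.9%, and Slfn4 at 16.3% and 1.02%, the latter being 1 of 98 cells.

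In cDC2 the shares parted for all 5 members. Slfn5 was detected in 58.9% of 270 NTT (52.8 to 64.8) and, among 404 RTT cells, in 20.8% (16.9 to 25.1), and Slfn1 in 32.2% (26.7 to 38.2) and 6.44% (4.25 to 9.29). Slfn2 was detected in 66.7% (60.7 to 72.3) and 52.7% (47.7 to 57.7), and Slfn8 in 17.8% and 5.69%. Slfn4 was detected in 5.19% of NTT cells, above the NK_cells share given earlier, and in 1 RTT cell. Whether these shares differ beyond counting error was not tested, nor was the part of free RNA in them.

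The number of members found in each cell was counted next. It follows in part from the share of cells with each gene, and whether the genes fell in the same cells more often than those shares give was not tested. In NTT Infl_Mono, 72.7% of thinned cells (69.0 to 76.3) held UMIs of 3 or more of the 5 genes and 9.87% held all 5. In RTT Infl_Mono the shares were 45.7% (35.2 to 56.4) and 3.26%. In Monocyte_1 the share with 3 or more was 33.7% (30.7 to 36.8) in NTT and 21.4% (13.8 to 30.9) in RTT. The intervals of the Infl_Mono shares were apart and those of the Monocyte_1 shares overlapped slightly. NTT neutrophils had 52.3% of 88 cells with 3 or more, cDC2 had 29.3% in NTT and 5.45% in RTT, and TAM_Spp1 had 20.4% and 3.84%. TAM_C1q had 0.952% of its 1995 RTT cells. Over all cells the shares were 34.8% and 3.22%.

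**Figure D3:**
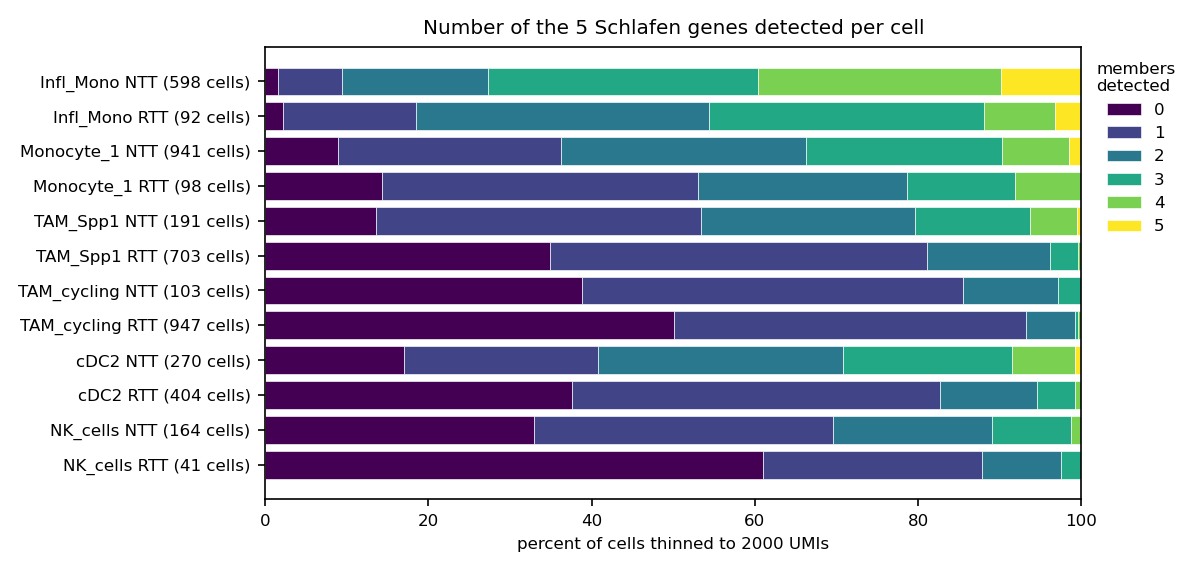
Each bar is 1 population in 1 library after thinning to 2000 UMIs, split along the x axis (percent of cells) by how many of the 5 Schlafen genes had a UMI in a cell, from 0 (dark) to 5 (yellow). Cells with 3 or more genes make up 72.7% of NTT and 45.7% of RTT Infl_Mono and 29.3% of NTT and 5.45% of RTT cDC2.

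The difference over all cells can be split into a part that goes with the share of UMIs in each population and a part that goes with the level inside populations. With the mean of both libraries as weights, population shares held 62.0% of the difference for Slfn1, 76.1% for Slfn2, 60.4% for Slfn5 and 65.5% for Slfn8. For Slfn4 the share was 44.3%. The split depends on the weights, most of all for Slfn4, where it was 79.4% with NTT levels and 9.24% with RTT levels as weights. It was 77.7% and 43.0% for Slfn5, 83.2% and 47.8% for Slfn8 and 72.4% and 51.7% for Slfn1, so with RTT levels the larger part turned for Slfn5 and Slfn8. Slfn2 stayed between 73.2% and 79.1%. Ctsk_Macro had no NTT cell, so its NTT level was set to its RTT level.

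**Figure D4:**
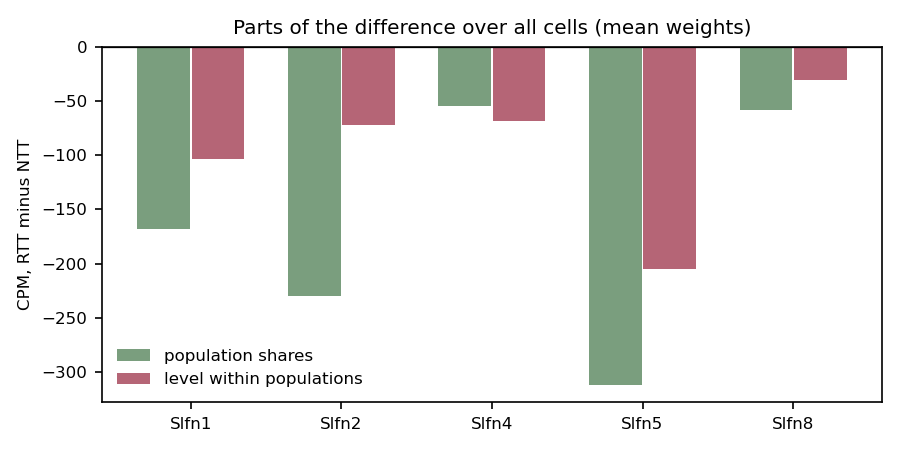
Bars give the RTT minus NTT difference over all cells in CPM (y axis) for each Schlafen gene, split with mean weights into population shares (green) and levels within populations (red). With these weights population shares hold the larger part for Slfn1, Slfn2, Slfn5 and Slfn8, and 44.3% for Slfn4. With RTT weights the larger part turns for Slfn5 and Slfn8.

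By population, Infl_Mono and Monocyte_1 carried most of the difference. Infl_Mono held 49.1% of it for Slfn5, 50.2% for Slfn8, 47.8% for Slfn4 and 36.0% for Slfn1, and Monocyte_1 held 38.1% for Slfn1, 22.3% for Slfn5, 30.7% for Slfn8 and 24.6% for Slfn4. For Slfn2 they held 51.9% and 61.3%. Neutrophils held 16.6% for Slfn4 and at most 5.85% for the others. TAM_C1q worked against the difference, by -50.6% for Slfn2, whose level there was 381 CPM, and by -14.5% for Slfn8.

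To set the members beside their usual inducer, a list of 44 interferon pathway genes was described by role, with 42 in the matrix. Over all cells 32 of 42 were 2-fold lower and 0 higher, with a median log2 ratio of -2.52, against 9.60% of all genes lower. Among 7 receptors and kinases 1 was lower, the kinase Jak2 with 157 CPM in NTT and 39.1 in RTT. The receptor chains Ifnar1 and Ifnar2 had log2 ratios of 0.16 and 0.30. Among 8 transcription factors 6 were lower, including Stat2 with -2.73 and Irf7, the amplifier of interferon production, with -3.23. Among 24 target genes 23 were lower, with a median of -2.82, and Bst2, a tether of viruses, was the exception with -0.95. Usp18, which curbs the receptor, had -2.69.

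In cDC2, 25 of 34 tested genes of the list were lower and 0 higher, against 6.71% and 4.48% of all tested genes. All 19 tested targets were lower, with a median log2 ratio of -2.52. The members Slfn1, Slfn5 and Slfn8, with ratios from -2.87 to -1.94, lay in the range of those targets, from -4.36 to -1.57, and Slfn2 with -0.92 lay above it. In Infl_Mono, 7 of 40 were lower and 0 higher, and 3 of 24 targets, with a median of -0.49, where 9.78% of all tested genes were lower. Slfn1, Slfn5 and Slfn8 had ratios from -0.95 to -0.32 there, while Slfn4 with -2.77 lay below the lowest target, Oas3 with -1.87. In cDC2 Slfn4 had -6.08 (-11.4 to -3.52) from 1 RTT UMI, an interval that includes the lowest target. Slfn2 was the highest of the members in both populations.

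In Monocyte_1, 10 of 40 genes of the list were lower, where 9.87% of all tested genes were, and 1 was higher, Rsad2 with a log2 ratio of 1.47. In TAM_Spp1, 15 of 25 were lower and 0 higher, against 12.5% and 12.2% of all tested genes, and 9 of 11 targets were lower. In TAM_cycling, 20 of 35 were lower and 1 higher, against 4.34% and 4.78%, and 15 of 18 targets were lower.

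**Figure D5:**
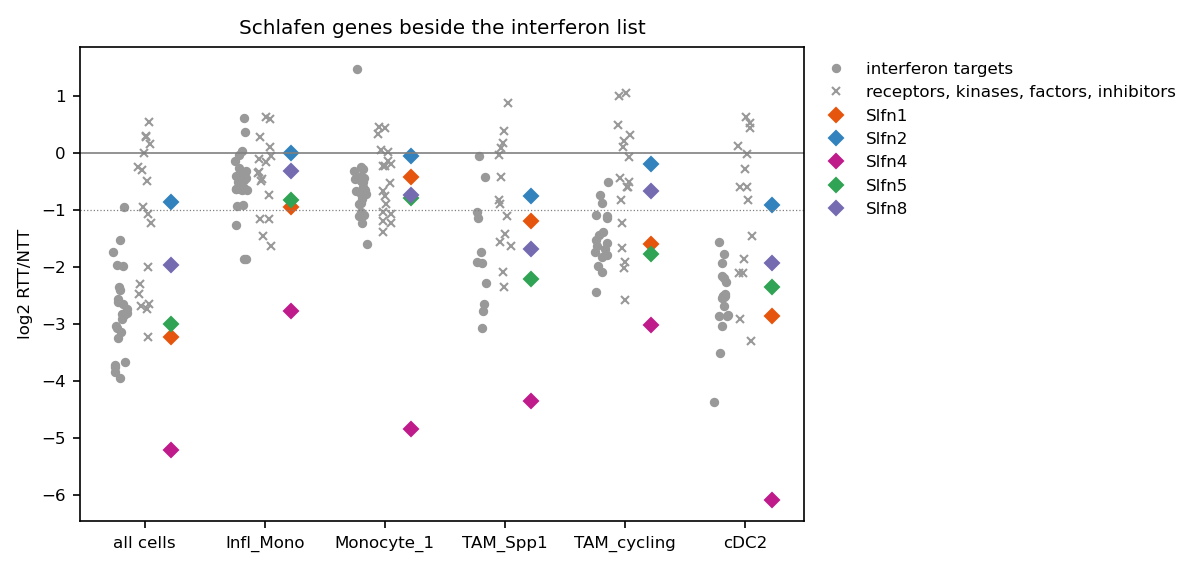
The y axis gives the log2 RTT over NTT ratio in all cells and 5 populations (x axis); grey circles are interferon targets, grey crosses the other genes of the interferon list, and coloured diamonds the 5 Schlafen genes. Slfn4 lies below every gene of the list in the Infl_Mono column, and Slfn2 near 0 in both monocyte columns.

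Genes around the cluster were described as a comparison by position. Within 500000 bases of either end, 10 genes other than Schlafen genes had at least 500 UMIs, with a median log2 ratio of -0.24, and 4 of them were 2-fold lower and 0 higher, against 9.60% and 8.18% of all tested genes. All 4 were chemokines of myeloid cells or lymphocytes, Ccl3 with -2.19, Ccl6 with -1.87, Ccl4 with -1.47 and Ccl5 with -1.44. The genes nearest the cluster that met the minimum, Rad51d, a DNA repair factor, and Ap2b1, an adaptor of coated vesicles, had -0.24 and -0.20. In Infl_Mono the chemokines with at least 200 UMIs were split, with log2 ratios of 0.95 for Ccl5, 1.29 for Ccl4, -0.34 for Ccl9 and -1.15 for Ccl6. Slfn9, inside the cluster, had -1.47 in Infl_Mono and -2.49 in Monocyte_1 (4 RTT UMIs).

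For each member, the 3 genes with the most similar pattern were named by Pearson's r of log2(CPM + 1) over 21 profiles of 1 population in 1 library, among 8220 genes. The profiles share libraries and depth, so r is a description. For Slfn1 they were Oas3 (0.94), a sensor of viral RNA, Ms4a4c (0.93), a membrane protein, and Zbp1 (0.93), a sensor of nucleic acids. For Slfn5 they were Trim30d (0.92), Ifi211 (0.92) and Stat2 (0.92), and for Slfn8 Parp14 (0.94), Xaf1 (0.92) and Ifi206 (0.92). Several of these are known interferon targets.

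For Slfn4 they were Nampt (0.94), an enzyme of NAD synthesis, Trim25 (0.91), a ubiquitin ligase of RNA sensing, and Acod1 (0.90), the itaconate enzyme of activated myeloid cells. For Slfn2 they were Tor1aip1 (0.90), Ifitm3 (0.90), which blocks entry of viruses, and Sppl2a (0.87). With Spearman's rho instead, 2 of 3 genes were shared for Slfn1 and Slfn8, 1 of 3 for Slfn2 and all 3 for Slfn4 and Slfn5. Among the members themselves r ran from 0.68 for Slfn5 with Slfn8 to 0.88 for Slfn1 with Slfn8.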

How the data were processed

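Single-cell RNA was measured in CD45+ cells of NTT and RTT tumours, 1 library each. The deposited values are raw UMI counts per gene and cell, which the authors made with Cell Ranger 6.1.1 from 3′ libraries on the prebuilt mm10 reference (version per the study's methods and the submitters' processing notes). Per the study's methods, cells had more than 1000 genes, under 15% mitochondrial and under 40% ribosomal reads, and genes were kept if found in at least 5 cells of each of 3 experiments, 1 of them probe-based; ribosomal and mitochondrial genes were removed. Of the deposited cells, 88 NTT and 47 RTT cells had 1000 or fewer of the retained genes and were kept here. The authors named populations on a batch-corrected map that also held another melanoma model.

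The members, gene lists and comparisons were chosen with earlier results of these data known. Named genes are the 5 members, the interferon list, the 3 most similar genes per member, genes within 500000 bases of the cluster, and markers that moved with a member. Counts were summed per library and population and scaled to CPM. No test was possible between groups of 1 library, and p-values are left out. CPM intervals are exact Poisson, shares exact Clopper-Pearson, and ratios exact binomial intervals at 95%; a count of 0 was set to 3 UMIs for bounds. All cover counting error only. Classes merged for counts were monocytes (Monocyte_1, Monocyte_3, Infl_Mono), macrophages (TAM_C1q, TAM_H2Ab1, TAM_Spp1, TAM_cycling, Ctsk_Macro, Macro) and dendritic cells (cDC1, cDC2, DC3). Python 3.11.15, numpy 2.4.6, scipy 1.17.1, pandas 2.3.3 and matplotlib 3.10.9 were used, and edgeR 4.0.16 and DESeq2 1.42.0 in R 4.3.3 gave alternative scaling factors only. The ratio script was tested on simulated data. Alternatives were other scalings, the mean of per-cell CPM, cells with at least 1500 genes, thinning, leaving out the cells with most UMIs, neutrophils or cells with C1qa, and other weights. Other samples of the study were not used here. The values of 1 gene of the interferon list are not reported here, nor is 1 further motif that was searched and had a match in 0 of the 5 promoters.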

Additional observations from a re-analysis of the deposited data

How the results depend on the processing

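With 1 library per group, spread between mice is unknown, and 3 UMIs or fewer in RTT set several Slfn4 ratios. Of 550 values recomputed under alternatives, 433 stayed within the counting interval of the reported value (for counts, close to it), 117 moved beyond it and 0 of the called values changed sign. Slfn8 in TAM_cycling and Slfn2 in monocyte populations, none of them called, had values on both sides of 0, as given above. The mean of per-cell CPM gave log2 ratios over all cells of -2.84 for Slfn1 and -2.95 for Slfn5. Thinning to 2000 UMIs gave -2.89 for Slfn1, -0.91 for Slfn2, -2.95 for Slfn5 and -2.08 for Slfn8. Keeping cells with at least 1500 genes gave -3.35 for Slfn1, and leaving out the 5% of cells with most UMIs gave -0.92 for Slfn2, -3.11 for Slfn5 and -2.06 for Slfn8. The cause was not tested. In Infl_Mono, 2 members instead of 1 were 2-fold lower with edgeR's TMM scaling, with cells of at least 1500 genes, and without the cell with most UMIs of the gene in each library. Those settings moved Slfn1 past the threshold, to a ratio of -1.08 with TMM and -1.05 without that cell. Without cells with C1qa at 1000 CPM or more, 3 were lower in Infl_Mono and 2 in merged monocytes. Shares over all genes were not computed under these settings. TMM shifted the median of all genes by -0.12 in Infl_Mono and -0.14 in DC3, and DESeq2's factors by -0.16 in DC3. Without thinning, the share of cells with 3 or more members was 89.7% in NTT and 78.7% in RTT Infl_Mono, and 67.6% and 43.4% in Monocyte_1. With NTT levels as weights, population shares held 72.4% of the difference for Slfn1, 79.4% for Slfn4, 77.7% for Slfn5 and 83.2% for Slfn8. With RTT levels they held 51.7%, 9.24%, 43.0% and 47.8%. With no minimum on UMIs, 16.2% of all 12584 genes were 2-fold lower over all cells. Leaving neutrophils out, like the C1qa setting chosen after seeing the data, moved none of the 11 values it touched. No paired analysis was possible because each group is 1 library and the labels carry no replicate number, and no replicate could be left out for the same reason.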
